A study of Homo sapiens with 9 samples.

Results

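The mRNA levels of 10 genes of non-homologous end joining were examined in H1299 cells depleted of FIBP: XRCC5, XRCC6, PRKDC, DCLRE1C, XRCC4, LIG4, NHEJ1, POLL, POLM and TP53BP1. A gene was taken when its symbol was listed for a row of the deposited transcript tables, and the values of its transcripts were summed. All 10 were found among 60966 genes, and all 10 were among the 14985 genes with enough signal to be tested. H1299 is an established human lung cancer cell line, so the data describe a single line. The cells had received a non-targeting siRNA (Scramble) or 1 of 2 siRNAs against FIBP (Si-FIBP#1 or Si-FIBP#2). Each of the 3 groups held 3 samples, and no irradiation is named for any of them. The study's methods say in general that experiments were independently repeated, but neither they nor the labels say whether these 3 samples of a group came from separate cultures, so the p-values measure the spread between these samples, which may be technical.

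Non-homologous end joining seals DNA double-strand breaks without a template. The Ku heterodimer binds the broken ends and recruits the kinase DNA-PKcs, nucleases such as Artemis and specialized polymerases trim or fill the ends, and DNA ligase IV with its partners XRCC4 and XLF joins them. 53BP1 shields the ends from resection and so favours joining over homologous recombination, the pathway that copies an intact sister chromatid. The study asked how loss of FIBP affects the repair of DNA damage. Unlike homologous recombination, end joining needs no sister chromatid.

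FIBP mRNA stood at 77.7 to 88.4 FPKM (fragments per kilobase of transcript, scaled to a fixed number of mapped fragments) in Scramble cells, at 4.30 to 7.77 in Si-FIBP#1 cells and at 5.92 to 8.21 in Si-FIBP#2 cells, so every depleted sample lay below every Scramble sample. The libraries held an estimated 20150000 to 23800000 fragments each. Of 9 epithelial, mesenchymal and lung markers, 3 were measured above 1 FPKM (KRT8, KRT18 and VIM), while EPCAM, CDH1, NKX2-1, SFTPB, SFTPC and NAPSA were at or below 0.66 FPKM in all samples. All 3 measured markers fell with both siRNAs, and the sum of the list ranged from 3726 to 3955 FPKM in Scramble, from 2433 to 2757 in Si-FIBP#1 cells and from 1803 to 2503 in Si-FIBP#2 cells. Of 6 markers of other cell types, only CD68 and ACTA2 reached 1 FPKM in 3 samples, and their list summed to 35.6 to 37.5, 43.6 to 46.3 and 58.2 to 72.5 FPKM in the 3 groups.

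FIBP depletion shifted the end-joining genes modestly and in both directions. XRCC6, PRKDC, XRCC4 and NHEJ1 fell with each siRNA, LIG4 and TP53BP1 rose with each, and no gene changed by 2-fold. Of 19 alternatives, the fall of PRKDC passed in 14 for Si-FIBP#1, that of NHEJ1 in 15 for either siRNA and that of XRCC4 in 6 for Si-FIBP#2. LIG4 rose to 155% and 169% of its Scramble mean and TP53BP1 to 146% and 155%, while the falls went down to 62.2% of Scramble, for DCLRE1C in Si-FIBP#1 cells. With Si-FIBP#1, 9 of 10 passed an adjusted p of 0.05 (limma, Benjamini-Hochberg over all genes tested), 4 of them higher and 5 lower, where 47.7% of all genes tested passed, 27.8% higher and 19.9% lower. With Si-FIBP#2, 7 passed, 2 higher and 5 lower, where 48.8% of all genes passed, 31.1% higher and 17.7% lower. For both siRNAs combined, all 10 passed, 4 higher and 6 lower, beside 53% of all genes, 32.6% higher and 20.3% lower. With each siRNA on its own and in the same direction, 2 of 10 passed higher and 4 lower, beside 21.8% and 13.7% of all genes. Both comparisons use the same Scramble samples. In RNA from whole cultures, fewer cells in a given state and less RNA per cell cannot be told apart.

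The study's own criterion, a change of 2-fold with an adjusted p under 0.05, was met by 0 of 10 genes in each comparison by limma, beside 5.66% of all genes in Si-FIBP#1 cells, 5.05% in Si-FIBP#2 cells, 4.81% with both and 0.561% between the siRNAs. At an unadjusted p of 0.05 with no fold requirement, 10 genes passed in each comparison with Scramble and 1 between the siRNAs, beside 54.5% of all genes tested for Si-FIBP#1, 55.2% for Si-FIBP#2, 58.5% for both and 29.9% between the siRNAs. The median log2 fold change of the 10 was -0.12 in Si-FIBP#1 cells and -0.22 in Si-FIBP#2 cells, against 0.07 and 0.11 over all genes tested. All 6 depleted samples lay beyond all 3 Scramble samples for 9 of the 10 genes, 3 higher and 6 lower, beside 42.9% of all genes, 26.3% higher and 16.5% lower. The exception was POLM.

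In the Scramble samples the summed FPKM ran from XRCC6 at 259 ± 5.91 (SD, n = 3), PRKDC at 199.8 ± 2.79 and XRCC5 at 155 ± 4.70 down to DCLRE1C at 4.56 ± 0.773 and LIG4 at 3.70 ± 0.221. Between them came TP53BP1 at 21.9 ± 1.44, XRCC4 at 20.3 ± 1.91, POLL at 14.5 ± 1.195, NHEJ1 at 9.38 ± 1.32 and POLM at 8.68 ± 1.88. In this order TP53BP1 overlapped XRCC4 and NHEJ1 overlapped POLM, while the samples of the other neighbours did not overlap. The place of PRKDC depends on how its transcripts are summed, as described with that gene. Per library, an estimated 226 to 385 fragments lay behind DCLRE1C and 276 to 531 behind LIG4, against 7897 to 10725 behind XRCC6. In the annotation of the deposited tables, 9 of the 10 carry the label of the non-homologous end joining pathway, and TP53BP1 does not. Outside the 10, the label is also carried by DNTT, FEN1, MRE11 and RAD50, among others.

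XRCC5 and XRCC6 encode Ku80 and Ku70, the ring that threads onto a broken end. XRCC5 (ENSG00000079246, chr2:216107464-216206303, plus strand, GRCh38) was listed at 149.8, 158.1 and 157.8 FPKM in Scramble, at 142.2, 143.2 and 149.2 in Si-FIBP#1 cells and at 126.6, 122.9 and 129.9 in Si-FIBP#2 cells. All depleted samples lay below Scramble, those of Si-FIBP#2 further than those of Si-FIBP#1. Its log2 fold change was -0.10 (SE 0.04, adjusted p = 0.0911) in Si-FIBP#1 cells, which did not pass, and -0.29 (SE 0.04, adjusted p = 0.000487) in Si-FIBP#2 cells. When the samples were scaled to each other by the median ratio over genes, or to TPM, the value in Si-FIBP#1 cells was -0.16 or -0.14 and passed (adjusted p = 0.0281 and 0.0267). Nearly all of the signal came from 1 transcript, ENST00000392132 of 3379 nt, which held 95.7% of the FPKM in Scramble.

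XRCC6 (ENSG00000196419, chr22:41621119-41664048, plus strand) was listed at 253.2, 258.9 and 265.0 FPKM in Scramble, at 220.3, 225.1 and 223.6 in Si-FIBP#1 cells and at 219.9, 237.1 and 213.8 in Si-FIBP#2 cells. The 6 depleted samples were lower and the siRNAs overlapped each other. Its log2 fold change was -0.22 (SE 0.05, adjusted p = 0.00389) and -0.21 (SE 0.05, adjusted p = 0.00406), a fall of about the same size with either siRNA, and the interval of the difference between the siRNAs was -0.10 to 0.11. The transcript ENST00000360079 of 2122 nt held 93.4% of its FPKM. It fell from 242.0 ± 4.08 to 207 ± 3.57 and 203 ± 6.03 FPKM, by a log2 of 0.22 (adjusted p = 0.00455) and 0.25 (adjusted p = 0.00254) over all transcripts tested. The processed copies of XRCC6 in the genome, XRCC6P1 to XRCC6P5, were listed at 0.07 FPKM at most.

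The ratio of XRCC5 to XRCC6 within a sample does not depend on how the sample is scaled. It was 0.599 ± 0.0100 in Scramble, 0.650 ± 0.0159 in Si-FIBP#1 cells and 0.567 ± 0.0452 in Si-FIBP#2 cells. The depleted samples lay on both sides of Scramble, and the log2 ratio differed by 0.02 between the 6 depleted and 3 Scramble samples (exact permutation test, two-sided, p = 0.869). Of these, all 3 Si-FIBP#1 samples, at 0.636 to 0.667, were above the Scramble range of 0.592 to 0.611, while Si-FIBP#2 samples ran from 0.518 to 0.608 with 1 inside that range, and neither siRNA was tested by itself.

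PRKDC (ENSG00000253729, chr8:47773108-47960183, minus strand) encodes DNA-PKcs, the kinase that Ku recruits. It was listed at 203.0, 198.7 and 197.7 FPKM in Scramble, at 187.9, 175.5 and 176.8 in Si-FIBP#1 cells and at 173.6, 164.4 and 170.8 in Si-FIBP#2 cells. Every depleted sample was below every Scramble sample. The log2 fold change was -0.15 (SE 0.04, adjusted p = 0.0173) and -0.24 (SE 0.04, adjusted p = 0.00161). The call in Si-FIBP#1 cells was lost without Scramble replicate 1 (adjusted p = 0.0548), Si-FIBP#1 replicate 2 (adjusted p = 0.0684) or Si-FIBP#1 replicate 3 (adjusted p = 0.0533), and without the mean-variance trend (adjusted p = 0.0581). Much of the summed FPKM came from short transcripts: ENST00000536483, a retained-intron transcript of 834 nt, stood at 83.6 ± 3.35 FPKM in Scramble, more than the full coding transcript ENST00000314191 of 13459 nt at 48.95 ± 1.47. Transcripts of 3000 nt or longer held 45.7% of the FPKM but an estimated 95.0% of the fragments, and they summed to 91.4 FPKM in Scramble, below XRCC5. They summed to 86.3 FPKM in Si-FIBP#1 cells and 82.2 in Si-FIBP#2 cells. Weighed by fragments, the log2 change was -0.09 (adjusted p = 0.132) in Si-FIBP#1 cells, which did not pass, and -0.16 (adjusted p = 0.0112) in Si-FIBP#2 cells. For the short transcript the change was -0.12 (adjusted p = 0.138) and -0.27 (adjusted p = 0.00934), and for the full coding transcript, which did not pass, -0.14 (adjusted p = 0.25) and -0.21 (adjusted p = 0.101). An assembled transcript of 13692 nt, which held 21.2% of the FPKM and an estimated 44.5% of the fragments in Scramble, stood at 42.4 ± 0.510, 41.9 ± 1.74 and 39.8 ± 1.46 FPKM in the 3 groups and did not pass either (log2 -0.02 and -0.09, adjusted p = 0.858 and 0.303).

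DCLRE1C encodes Artemis, the nuclease that DNA-PKcs activates to open hairpins and trim ends. DCLRE1C (ENSG00000152457, chr10:14897359-14954432, minus strand) was listed at 5.45, 4.03 and 4.21 FPKM in Scramble, at 2.62, 2.59 and 3.31 in Si-FIBP#1 cells and at 2.98, 3.46 and 3.79 in Si-FIBP#2 cells. The groups did not overlap with Scramble, and the first Scramble sample was the highest. This was a log2 fold change of -0.53 (SE 0.13, adjusted p = 0.00804) in Si-FIBP#1 cells and -0.33 (SE 0.13, adjusted p = 0.0611) in Si-FIBP#2 cells. The second did not pass, but it did after scaling by the median ratio (-0.41, adjusted p = 0.0241) and by estimated fragments (-0.36, adjusted p = 0.0114). It was -0.22 (adjusted p = 0.204) without Scramble replicate 1 and -0.26 (adjusted p = 0.177) without Si-FIBP#2 replicate 1. Its main transcript ENST00000378278, at 2.14 ± 0.272 FPKM in Scramble, was at 1.33 ± 0.157 in Si-FIBP#1 cells and 1.68 ± 0.1501 in Si-FIBP#2 cells and did not pass by itself. DCLRE1C shares 159 exon bases with SUV39H2 on the opposite strand, at 8.85 FPKM on average, and no step that keeps the strand is described for these libraries.

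LIG4 and its partners moved in opposite directions. LIG4 (ENSG00000174405, chr13:108207439-108218368, minus strand), the ligase itself, was listed at 3.62, 3.95 and 3.53 FPKM in Scramble, at 5.41, 5.86 and 5.93 in Si-FIBP#1 cells and at 6.46, 6.45 and 5.87 in Si-FIBP#2 cells. All 6 depleted samples lay above all 3 Scramble samples. LIG4 rose by a log2 of 0.52 (SE 0.08, adjusted p = 0.000687) and 0.63 (SE 0.08, adjusted p = 0.000221), the largest rise of the 10 in Si-FIBP#2 cells. All LIG4 signal lay in transcripts of 3000 nt or longer, and they shared it unevenly between samples: ENST00000442234 stood at 1.48 ± 0.978, 1.81 ± 1.01 and 2.88 ± 0.620 FPKM in the 3 groups and did not pass, so the rise is that of the sum. ENST00000405925 stood at 1.097, 1.01 and 1.66 FPKM and did not pass, and ENST00000614526, which had too little signal to be tested, at 0.367, 1.90 and 0.477.

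XRCC4 (ENSG00000152422, chr5:83077498-83353787, plus strand), the scaffold that stabilizes the ligase, went the other way. It was listed at 19.1, 19.3 and 22.5 FPKM in Scramble, at 13.8, 14.3 and 13.8 in Si-FIBP#1 cells and at 17.3, 13.2 and 18.4 in Si-FIBP#2 cells. The groups did not overlap with Scramble, but the samples of Si-FIBP#2 spread widely. The log2 fold change was -0.50 (SE 0.11, adjusted p = 0.00525) in Si-FIBP#1 cells. With Si-FIBP#2 it was -0.31 (SE 0.11, adjusted p = 0.0497), at the edge of the threshold, and the call was lost when any 1 sample other than Si-FIBP#2 replicate 3 was left out. The adjusted p was then 0.0535 to 0.164, and without Si-FIBP#2 replicate 2 the change was -0.17 (adjusted p = 0.119). The call was also lost with a pseudocount of 0.1 (adjusted p = 0.0503), with no filter on low values (adjusted p = 0.114), without the mean-variance trend (adjusted p = 0.0639), by estimated fragments (-0.25, adjusted p = 0.0622) and with only the compared groups in the fit (adjusted p = 0.087), so 6 of 19 alternatives kept it. Among those, annotated transcripts only gave -0.66 (adjusted p = 0.00291), next to -0.65 in Si-FIBP#1 cells. The transcript ENST00000338635 of 1579 nt fell from 10.7 ± 1.096 to 5.09 ± 2.17 FPKM in Si-FIBP#1 cells (log2 -0.996, adjusted p = 0.0386) and stood at 6.65 ± 2.05 in Si-FIBP#2 cells (log2 -0.64, adjusted p = 0.156). An assembled transcript of 1849 nt rose in Si-FIBP#2 cells from 3.34 ± 0.415 to 5.85 ± 0.764 FPKM (log2 0.66, adjusted p = 0.0257).

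NHEJ1 (ENSG00000187736, chr2:219075317-219160865, minus strand) encodes XLF, which bridges the ends together with XRCC4. It was listed at 10.4, 9.85 and 7.88 FPKM in Scramble, at 6.68, 5.12 and 6.97 in Si-FIBP#1 cells and at 7.59, 4.69 and 6.76 in Si-FIBP#2 cells. The lowest Scramble sample lay just above the highest depleted one. NHEJ1 fell, with log2 fold changes of -0.52 (SE 0.17, adjusted p = 0.0297) and -0.51 (SE 0.17, adjusted p = 0.0306). Without Scramble replicate 1 these were -0.45 and -0.44 and did not pass (adjusted p = 0.0904 and 0.0932), nor did they without Scramble replicate 2 (-0.48 and -0.48, adjusted p = 0.0822 and 0.0842). With Si-FIBP#1 the call was also lost without Si-FIBP#1 replicate 2 (-0.40, adjusted p = 0.106), and in Si-FIBP#2 cells without Si-FIBP#2 replicate 2 (-0.34, adjusted p = 0.0912). With no filter on low values neither passed (adjusted p = 0.0857 and 0.0862). Its most abundant transcripts, ENST00000418099 at 2.44, 1.88 and 1.64 FPKM and ENST00000356853 at 2.03, 1.16 and 1.43 in the 3 groups, did not pass by themselves. A gene model on the same strand, AC068946.1, shares 2034 exon bases with NHEJ1 and was listed at 0.117 FPKM on average.

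The ratio of LIG4 to XRCC4 was 0.190, 0.205 and 0.157 in Scramble, 0.391, 0.411 and 0.430 in Si-FIBP#1 cells and 0.373, 0.489 and 0.319 in Si-FIBP#2 cells. All depleted samples lay above all Scramble samples. The log2 ratio was higher by 1.12 in the depleted samples on average. With LIG4 above and XRCC4 below Scramble in all 6, the ratio could not but separate, so it is given as a description with no test. The ratio of NHEJ1 to XRCC4 was 0.469 ± 0.104 in Scramble, 0.449 ± 0.0792 and 0.387 ± 0.0450, with overlapping samples. Its log2 difference was -0.16 (exact permutation test over 84 splits, two-sided, p = 0.393, adjusted 0.786 over the 2 ratios tested).

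**Figure D1:**
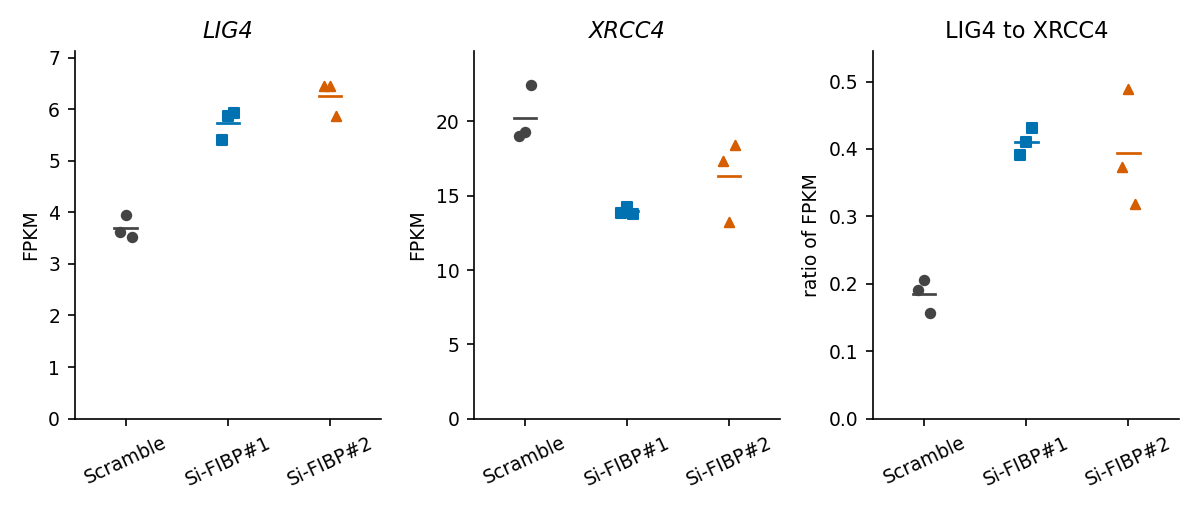
FPKM of LIG4, FPKM of XRCC4 and their ratio in each of the 9 samples, all on axes that start at 0, with a line at each group mean. LIG4 rises from a mean of 3.70 to 5.73 and 6.26 FPKM, XRCC4 falls from 20.3 to 13.96 and 16.3, and the ratio goes from 0.184 to 0.411 and 0.394.

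The promoters of LIG4, XRCC4 and DCLRE1C are shown as examples of genes that moved in different directions. Their most abundant annotated transcripts start within 48 nt of the RefSeq start, as do those of NHEJ1 and POLM, which are not shown. Each promoter shown runs from 250 bases before the start to 50 after it (RefSeq, GRCh38.p14). Capitals mark matches, on either strand, to CCAAT (bound by NF-Y), CCGGAAG (the core of ETS family sites) and TTCNNNGAA (the STAT palindrome). In DCLRE1C the STAT and ETS matches overlap in the last run of capitals. LIG4 lies at chr13:108215487-108215786 on the minus strand, XRCC4 at chr5:83077297-83077596 on the plus strand and DCLRE1C at chr10:14954047-14954346 on the minus strand.
LIG4 promoter: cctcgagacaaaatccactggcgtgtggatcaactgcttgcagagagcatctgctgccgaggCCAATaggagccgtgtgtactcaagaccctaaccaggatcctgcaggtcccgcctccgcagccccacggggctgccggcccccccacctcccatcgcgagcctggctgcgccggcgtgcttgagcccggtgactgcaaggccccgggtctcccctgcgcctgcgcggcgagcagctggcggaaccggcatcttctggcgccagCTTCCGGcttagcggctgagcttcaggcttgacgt
XRCC4 promoter: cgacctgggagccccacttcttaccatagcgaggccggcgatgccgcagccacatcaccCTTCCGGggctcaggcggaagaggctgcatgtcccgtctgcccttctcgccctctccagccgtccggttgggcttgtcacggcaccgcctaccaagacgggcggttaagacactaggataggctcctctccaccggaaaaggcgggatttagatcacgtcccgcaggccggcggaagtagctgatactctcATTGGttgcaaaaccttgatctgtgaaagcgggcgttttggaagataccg
DCLRE1C promoter: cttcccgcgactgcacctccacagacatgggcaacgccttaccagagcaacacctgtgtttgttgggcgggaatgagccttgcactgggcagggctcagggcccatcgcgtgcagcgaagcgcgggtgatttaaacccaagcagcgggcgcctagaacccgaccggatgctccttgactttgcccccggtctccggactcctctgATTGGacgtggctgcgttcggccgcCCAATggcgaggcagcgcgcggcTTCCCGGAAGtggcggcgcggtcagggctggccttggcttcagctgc

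Promoter windows were held for 8 of the 10 genes, all but XRCC5 and PRKDC. The ETS letters were found in 6 of the 8 (DCLRE1C, XRCC4, LIG4, POLL, POLM and TP53BP1), beside 17.4% of the 14809 promoters of tested genes. For POLL and TP53BP1 the most abundant annotated transcript starts 5064 and 17469 nt from the RefSeq start, so the window is not its promoter. For XRCC6 it starts 176 nt from the RefSeq start, so positions in that window are not centred on its start. The CCAAT letters were found in 7, all but NHEJ1, beside 35.0%. The STAT letters, searched because FIBP was studied as a partner of STAT3, were found in DCLRE1C alone, beside 6.10%. The E2F letters TTTGGCGC or TTTCCCGC were found in XRCC6 alone, beside 3.44%. All 8 windows had a GC content above the median of 58.7% over all 35116 promoters, a wider set than the promoters of tested genes used for the letters. LIG4, POLL, POLM and TP53BP1, which were higher with both siRNAs, all hold the ETS and CCAAT letters. Of the genes that were lower, XRCC4 and DCLRE1C hold both, XRCC6 holds the CCAAT letters without the ETS letters, and NHEJ1 holds neither. The part of these letters in the changes was not tested.

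POLL and POLM encode the polymerases lambda and mu, which fill gaps during joining. POLL (ENSG00000166169, chr10:101578882-101588270, minus strand) was listed at 14.5, 13.3 and 15.7 FPKM in Scramble, at 21.2, 17.99 and 18.6 in Si-FIBP#1 cells and at 17.9, 16.0 and 17.1 in Si-FIBP#2 cells. The depleted samples were higher, with those of Si-FIBP#2 close to Scramble. The log2 fold change was 0.39 (SE 0.08, adjusted p = 0.0044) in Si-FIBP#1 cells and 0.22 (SE 0.08, adjusted p = 0.0576) in Si-FIBP#2 cells, which did not pass. The second passed without Scramble replicate 3, Si-FIBP#1 replicate 1 or Si-FIBP#2 replicate 2 (adjusted p = 0.0412 to 0.0465), with a filter of 5 FPKM (adjusted p = 0.0486), and by estimated fragments, where it was 0.35 (adjusted p = 0.000854). It also passed with the replicate block. By median ratio it was 0.13 (adjusted p = 0.269). Its signal was spread over 23 listed transcripts, of which 6 were assembled, and the most abundant, an assembled transcript of 2418 nt, held 20.01% in Scramble and did not pass (2.90, 3.497 and 3.34 FPKM in the 3 groups). The transcripts did not all move alike, as 2 assembled ones chosen after their values were seen show. That of 2404 nt went from 1.43 to 0.527 and 0.813 FPKM (log2 -0.68 and -0.43, adjusted p = 0.0255 and 0.124). That of 2285 nt went from 0.647 to 1.92 and 1.87 FPKM. Summed over annotated transcripts only, the change was 0.41 in Si-FIBP#1 cells (adjusted p = 0.0901) and 0.02 in Si-FIBP#2 cells (adjusted p = 0.952), so the call was lost without the assembled transcripts. POLL shares 243 exon bases with DPCD on the opposite strand, at 46.7 FPKM on average.

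POLM (ENSG00000122678, chr7:44072247-44082540, minus strand) was listed at 10.8, 7.91 and 7.30 FPKM in Scramble, at 12.8, 10.8 and 10.6 in Si-FIBP#1 cells and at 10.8, 10.3 and 11.1 in Si-FIBP#2 cells. Scramble replicate 1 lay among the depleted samples and the other Scramble samples below them. By estimated fragments, scaled to equal depth, the groups did not overlap (15.5 to 17.7 in Scramble and 19.8 to 23.6 in the depleted samples), and the change passed for Si-FIBP#1 (0.37, adjusted p = 0.00167) and for Si-FIBP#2 (0.30, adjusted p = 0.00609). The log2 fold change was 0.37 (SE 0.13, adjusted p = 0.0372) and 0.29 (SE 0.13, adjusted p = 0.0845). The first was lost with the median ratio (0.32, adjusted p = 0.057) or TPM scaling (0.34, adjusted p = 0.0583) and when Scramble replicate 2 or 3 or any Si-FIBP#1 replicate was left out (adjusted p = 0.0510 to 0.129). It was also lost with no filter (adjusted p = 0.094), with annotated transcripts only (adjusted p = 0.0776) and with only the compared groups in the fit (adjusted p = 0.0608). Without Scramble replicate 1 the second passed (0.45, adjusted p = 0.00577), as it did with the replicate block, and without Scramble replicate 3 it was 0.19 (adjusted p = 0.268). Its most abundant transcript, ENST00000242248, stood at 2.34, 2.73 and 2.68 FPKM in the 3 groups and did not pass.

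TP53BP1 (ENSG00000067369, chr15:43403061-43510728, minus strand) encodes 53BP1. It was listed at 22.8, 20.2 and 22.6 FPKM in Scramble, at 34.1, 29.5 and 32.2 in Si-FIBP#1 cells and at 37.0, 32.6 and 32.2 in Si-FIBP#2 cells. Every depleted sample lay above every Scramble sample, with a wide gap. TP53BP1 rose by a log2 of 0.53 (SE 0.08, adjusted p = 0.00052) and 0.61 (SE 0.08, adjusted p = 0.000215). Most of the added FPKM was listed for transcripts other than the longest one, called full-length here, and some of these others are also annotated as protein coding. ENST00000382044 of 10369 nt, which held 48.0% of the gene's FPKM in Scramble, stood at 10.5 ± 0.613, 10.8 ± 0.387 and 10.3 ± 0.837 FPKM in the 3 groups, with log2 fold changes of 0.04 (SE 0.09, adjusted p = 0.803) and -0.03 (SE 0.09, adjusted p = 0.843). All other transcripts together stood at 11.4 ± 1.09, 21.2 ± 2.06 and 23.7 ± 1.94 FPKM, a split made after the values were seen. Of these, ENST00000411772 of 3976 nt, annotated as a target of nonsense-mediated decay, rose from 3.62 ± 0.972 to 7.38 ± 0.396 and 6.76 ± 0.590 FPKM (log2 0.88 and 0.77, adjusted p = 0.00427 and 0.00851). ENST00000382039 of 6015 nt, annotated as protein coding, was chosen after its values were seen. It rose from 1.13 ± 0.480 to 5.34 ± 1.12 and 3.52 ± 0.781 FPKM (log2 1.58 and 1.096, adjusted p = 0.00135 and 0.00823).

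Counted by fragments the rise of TP53BP1 was smaller, with log2 fold changes of 0.39 and 0.36 (adjusted p = 1.5e-05 and 3.1e-05), since the full-length transcript held an estimated 73.9% of the fragments in Scramble, 58.0% in Si-FIBP#1 cells and 56.4% in Si-FIBP#2 cells. TP53BP1 shares 3732 exon bases with TUBGCP4 on the opposite strand, which was listed at 8.63 FPKM on average, and reads of the shared bases cannot be told apart without strand.

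**Figure D2:**
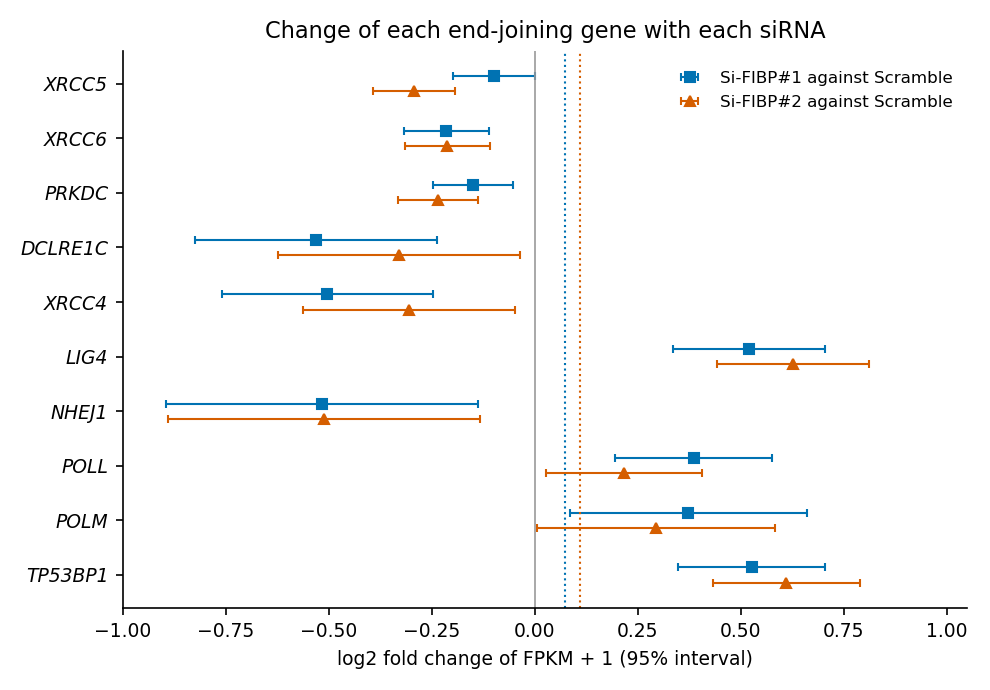
Log2 fold change of FPKM + 1 against Scramble for each of the 10 genes, with 95% intervals from limma; squares are Si-FIBP#1, triangles Si-FIBP#2, and the dotted lines mark the median of all 14985 genes tested with each siRNA (0.07 and 0.11). LIG4, POLL, POLM and TP53BP1 lie to the right of 0 and the other 6 genes to the left with both siRNAs.

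The siRNAs could be compared directly. Between Si-FIBP#2 and Si-FIBP#1, 1 of 10 genes passed, beside 15.4% of all genes tested (9.58% higher, 5.8% lower). This was XRCC5, lower in Si-FIBP#2 cells (log2 -0.19, SE 0.04, adjusted p = 0.0172), a call lost without Si-FIBP#1 replicate 2 (adjusted p = 0.0503) or replicate 3 (adjusted p = 0.0539). Without Si-FIBP#2 replicate 2, XRCC4 passed as well (0.33, adjusted p = 0.0229). For the other 9 genes the estimated difference ran from -0.17 for POLL to 0.20 for DCLRE1C. The 95% interval was narrow for XRCC6 (-0.10 to 0.11) and PRKDC (-0.18 to 0.01) and wide for NHEJ1 (-0.37 to 0.38), DCLRE1C (-0.09 to 0.49) and POLM (-0.37 to 0.21).

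At the level of single transcripts, 47 transcripts of the 10 genes had enough signal to be tested. Of these, 8 passed in Si-FIBP#1 cells (4 higher, 4 lower), 8 in Si-FIBP#2 cells (5 higher, 3 lower), 11 with both combined (5 higher, 6 lower) and 0 between the siRNAs by limma, beside 20.7%, 19.1%, 24.1% and 2.46% of 47662 transcripts. At an unadjusted p of 0.05, 6 of the 47 passed between the siRNAs, beside 16.9% of all transcripts tested. With each siRNA in turn, the main transcript of XRCC6 passed lower, while 2 transcripts of TP53BP1 and 1 assembled transcript of POLL passed higher (log2 0.81 and 0.80 for the latter, adjusted p = 0.026 and 0.0297).

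Over the 9 samples, the gene whose log2 level followed PRKDC most closely among the 10 was XRCC5 (Pearson r = 0.85), and LIG4 was followed by TP53BP1 (r = 0.92), while PRKDC and LIG4 ran opposite (r = -0.94). These are descriptions across 3 groups that differ in level, and samples of a group share that level. Over all genes tested, the 3 most like PRKDC were AJUBA (r = 0.996), FRMD5 and RFLNA (both r = 0.993), and those most like XRCC5 were UBQLN1 (r = 0.988), YAP1 and FASTKD5 (both r = 0.970).

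An siRNA can also lower other mRNAs through its seed, and the 3′ UTRs of the 10 genes were searched for the 7 letters that pair with it. The letters of Si-FIBP#1, TTCAGCA, were found in XRCC5 and XRCC4, and those of Si-FIBP#2, TTTGCTA, in PRKDC and DCLRE1C. This is 2 of 10 for either siRNA, beside 19.97% and 17.6% of 11970 tested genes with a 3′ UTR (the longest per gene, GENCODE release 29). XRCC4 and PRKDC had their lower mean with the siRNA whose letters they hold, XRCC5 and DCLRE1C with the other siRNA. The sites outside PRKDC are shown with the matches in capitals.
XRCC5 site, Si-FIBP#1: tcacctctgtcTTCAGCAccctcataagt
XRCC4 site, Si-FIBP#1: taaactattcaTTCAGCAtgcctataatt
DCLRE1C site, Si-FIBP#2: atacaaataaaTTTGCTAgtatttgtatg
XRCC5, with a Si-FIBP#1 site, stood at 93.3% of Scramble in Si-FIBP#1 cells and 81.5% in Si-FIBP#2 cells. DCLRE1C, with a Si-FIBP#2 site that the GENCODE 3′ UTR of its most abundant coding transcript lacks, stood at 62.2% and 74.7%. XRCC4 stood at 68.9% and 80.5%, and PRKDC at 90.1% and 84.9%. The search covers GENCODE 3′ UTRs only, and any longer 3′ UTR of a deposited transcript was not searched. For DCLRE1C, ENST00000378278 has a GENCODE 3′ UTR of 237 nt but is listed at 5960 nt. For NHEJ1 the 3′ UTR searched had 1335 nt, while ENST00000356853 is listed at 8020 nt. The part of these sites in the results was not tested.

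Genes around this pathway were described from lists of textbook members by counts and medians, without a test of the list. The counts are of genes that passed an adjusted p of 0.05 by limma, and over all genes tested 27.8% and 31.1% passed higher with the 2 siRNAs in turn and 19.9% and 17.7% lower. Of 11 tested further classical factors, 2 passed higher and 6 lower in Si-FIBP#1 cells and 1 higher and 3 lower in Si-FIBP#2 cells, with medians of -0.26 and -0.16. Among them PAXX, a paralog of XRCC4 and XLF that binds Ku, fell from 46.8 ± 2.04 to 32.3 ± 1.15 and 37.9 ± 2.85 FPKM (adjusted p = 0.000168 and 0.00413). SETMAR, a methyltransferase and transposase fusion linked to joining, fell from 8.43 ± 0.889 to 4.79 ± 0.481 and 5.72 ± 0.543 FPKM (adjusted p = 0.000491 and 0.00402). APTX, which removes abortive ligation products, rose from 25.4 ± 2.69 to 32.4 ± 0.203 and 32.1 ± 0.238 FPKM (adjusted p = 0.0035 and 0.00414). The terminal transferase DNTT was listed at 0 in all samples.

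Of 18 genes around 53BP1, 2 passed higher and 6 lower in Si-FIBP#1 cells and 3 higher and 5 lower in Si-FIBP#2 cells, with medians of -0.02 and -0.01. H2AX, the histone variant that is phosphorylated at breaks, fell from 140.1 ± 5.68 to 60.4 ± 1.07 and 56.2 ± 6.15 FPKM, a log2 of -1.20 and -1.31 (adjusted p = 2.1e-06 and 1.66e-06). PAXIP1, a partner of 53BP1, fell by 1.03 and 0.92 on the log2 scale (adjusted p = 0.000151 and 0.000312). NUDT16L1, which binds 53BP1 and keeps it from chromatin, rose by a log2 of 0.39 and 0.72 (adjusted p = 0.00551 and 0.000161), and REV3L, the catalytic subunit of polymerase zeta, by 0.23 and 0.60 (adjusted p = 0.0224 and 0.000109).

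Genes of the competing routes had lower medians than the end-joining genes. Of 12 genes of alternative end joining, 8 passed lower in Si-FIBP#1 cells and 8 lower and 2 higher in Si-FIBP#2 cells, with medians of -0.45 and -0.48. LIG1, the replicative ligase, fell from 25.05 ± 3.29 to 8.62 ± 1.75 and 10.7 ± 0.967 FPKM (log2 -1.44 and -1.15), and FEN1, the flap nuclease, by 1.16 and 0.97 on the log2 scale. FEN1 carries the end joining label of the deposited tables, as do MRE11 and RAD50 of the same list. For MRE11 the log2 change was -0.69 and -0.86 (adjusted p = 0.000622 and 0.000162). For RAD50 it was 0.14 and 0.19 (adjusted p = 0.105 and 0.0381). Of 20 genes of homologous recombination, 16 passed lower with each siRNA and 1 higher in Si-FIBP#1 cells, with medians of -0.88 and -0.87, and 9 and 7 of them fell at least 2-fold. BLM fell by 1.73 and 1.98 and EME1 by 1.57 and 1.47 on the log2 scale. All 16 S phase genes, a list of genes linked to S phase entry and DNA replication, fell with both siRNAs, with medians of -1.44 and -1.17. Their part in the changes of the end-joining genes was not tested.

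**Figure D3:**
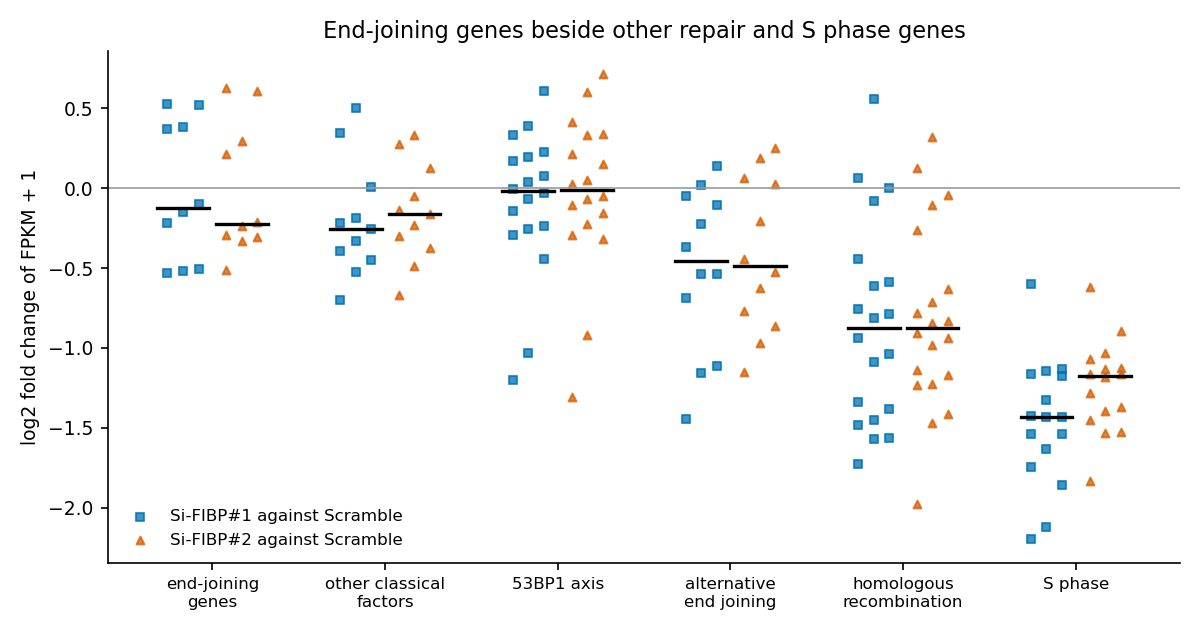
Log2 fold change of FPKM + 1 against Scramble for every tested gene of 6 lists, with a point for each gene (squares Si-FIBP#1, triangles Si-FIBP#2) and a black line at each list's median. The medians of the 10 end-joining genes are -0.12 and -0.22, those of homologous recombination -0.88 and -0.87 and those of the S phase genes -1.44 and -1.17.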

How the data were processed

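RNA-seq of H1299 cells comprised 9 samples in 3 groups, assigned from the sample titles. For each sample the deposited table lists FPKM of annotated and assembled transcripts. The unit was inferred from the values. The submitters' processing notes name HISAT2 and StringTie, while the genome build and annotation are not given in the sources used here. FPKM are computed per effective length, so short transcripts weigh heavily in a gene's sum. Depth was estimated from the FPKM worth of 1 fragment in single-transcript genes 800 to 2000 nt long, and intervals cover the spread between samples.

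Transcript FPKM, assembled transcripts included (5.45% to 5.84% of the total), were summed per gene. The 14985 genes that reached 1 FPKM in 3 or more samples were fitted with limma 3.58.1 in R 4.3.3 on log2(FPKM + 1) with a mean-variance trend, all 9 samples in 1 fit, with Benjamini-Hochberg adjustment over all genes. Fold changes on this scale understate those of low genes. The same was done for transcripts. The fit was tested on simulated data. As the tables hold no counts, no count test was run. Ratios of XRCC5 to XRCC6 and of NHEJ1 to XRCC4 were compared by exact permutation tests.

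All 10 genes are named. From each other list, genes that passed with both siRNAs in the same direction were eligible, at most 2 with the largest rise and 2 with the largest fall, plus those past 2-fold with both. MRE11 and RAD50 are named for their pathway label. Transcripts are named at 20% or more of a gene's FPKM in a group. The 10 genes and all lists were chosen with earlier results of these data known. Same-numbered samples of different groups deviated together weakly at most (correlations of -0.06 to 0.10, against -0.14 to 0.05 for samples of unlike number). Numbers were not treated as pairs in the main fit. Gene positions and 3′ UTRs are from GENCODE release 29 (GRCh38), promoters from RefSeq. Alternatives covered scaling, pseudocount, filter, assembled transcripts, trend, samples in the fit, replicate block, single samples left out and, chosen after seeing the data, estimated fragments in place of FPKM.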

Additional observations from a re-analysis of the deposited data

Results flagged for a closer look

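XRCC5 differed between the siRNAs against the same Scramble samples. Its log2 fold change was -0.10 for Si-FIBP#1, and for Si-FIBP#2 it was -0.29. The difference itself, Si-FIBP#2 minus Si-FIBP#1, was -0.19 (limma, adjusted p = 0.0172 over all genes tested). All 3 Si-FIBP#2 samples, at 122.9 to 129.9 FPKM, lay below all 3 Si-FIBP#1 samples, at 142.2 to 149.2. The difference did not pass with TPM scaling (-0.15, adjusted p = 0.0513), without the mean-variance trend (adjusted p = 0.0563), without Si-FIBP#1 replicate 2 (-0.20, adjusted p = 0.0503) or without Si-FIBP#1 replicate 3 (-0.17, adjusted p = 0.0539). Its cause was not tested.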

How the results depend on the processing

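Each of the 10 genes kept its direction against Scramble with either siRNA under all alternatives run. Leaving out single samples gave 6 to 9 genes passing for Si-FIBP#1, 5 to 7 for Si-FIBP#2, 8 to 10 for both and 0 to 2 between the siRNAs, where 40.5% to 51.4%, 41.7% to 48.5%, 44.9% to 54.2% and 8.55% to 19.1% of all genes passed. TPM scaling and a fit without the mean-variance trend gave 0 and 0 between the siRNAs in place of 1. The replicate block gave 9 for Si-FIBP#1 and 9 for Si-FIBP#2, where POLL (adjusted p = 0.036) and POLM (adjusted p = 0.0474) were added, beside 47.3% and 48.6% of all genes. Estimated fragments gave 8 (4 higher, 4 lower) for Si-FIBP#1 and 9 (4 higher, 5 lower) for Si-FIBP#2, and no filter gave 7 (3 higher, 4 lower) and 5 (2 higher, 3 lower), in place of 9 (4 higher, 5 lower) and 7 (2 higher, 5 lower). The shares of all genes were then 59.9% and 59.9% by fragments and 20.4% and 21.1% with no filter. TPM and median ratio scaling each gave 3 higher and 6 lower for Si-FIBP#1 in place of 4 and 5. Median ratio scaling moved the share of higher calls over all genes to 51.4% from 58.4% for Si-FIBP#1, and to 51.0% from 63.7% for Si-FIBP#2. No setting gave a gene past 2-fold. With no filter, 3, 5 and 7 of 112 transcripts passed in place of 8, 8 and 11 of 47, where the share over all transcripts went to 4.35%, 4.01% and 5.30%, as more low transcripts were tested.

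Differences between the siRNAs near 0 changed sign. For XRCC6 the log2 difference was -0.0369 by median ratio, -0.0068 with annotated transcripts only, -0.0072 by estimated fragments (an alternative chosen after seeing the data) and -0.0402 to 0.0340 when single samples were left out. For NHEJ1 it was -0.0275 by median ratio and -0.12 to 0.18 without single samples, and for POLM -0.12 to 7.29e-05. It was -0.0024 for XRCC4 with annotated transcripts only and -0.0308 for TP53BP1 by estimated fragments. The log2 ratio of NHEJ1 to XRCC4 changed by 0.12 with annotated transcripts only, and that of XRCC5 to XRCC6 by -0.0105 to 0.0623 without single samples. That of LIG4 to XRCC4 was 1.01 to 1.21 without single samples. The cause of the other changes was not tested.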
